A study of Camellia sinensis with 12 samples.

Results

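The most abundant annotated genes of the tea leaf are described here across 4 tea genotypes. They were selected by their level alone, as genes with an annotated identifier (starting TEA) whose mean over all 12 libraries was at least 500 FPKM. FPKM is the number of sequenced fragments of a gene, corrected for how long the gene is and for how many fragments of its library were mapped. The rule took 98 of 33932 annotated genes, which is 0.289% of them. The tables hold 42704 features in all, and the other 8772 are unannotated loci. Because the levels chose the genes, their abundance, shares and ranks are given as a description without a test. The differences between genotypes are tested, since the rule used the mean over all libraries and no contrast between genotypes.

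The study set 2 Kucha genotypes, K6 (Kucha-6) and K11 (Kucha-11), beside 2 varieties of conventional tea, YH9 (Yinghong 9) and QX1 (Qingxin 1), and the kinds differ in their content of theacrine. Leaf RNA was sequenced in 3 libraries per genotype, all plants stood in the same germplasm collection, and no treatment was given. Leaf age and position are not given in the labels used here. Whether a genotype's 3 libraries stem from different plants is not stated, and a p-value therefore measures only the spread among the libraries at hand, part of which may be technical. The extraction text in the labels mentions retinas, against the tissue label, from which leaf was taken here.

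As background, Kucha is a bitter tea, and theacrine is a purine alkaloid that is derived from caffeine. In green leaves, messenger RNAs for proteins of photosynthesis, such as the small subunit of Rubisco and the proteins that bind chlorophyll in the light-harvesting antennae, are usually among the most abundant. Messenger RNAs for ribosomal proteins and for proteins of metabolism and stress protection are often abundant as well. None of the 98 genes can be assigned to such a role here. Gene names are absent from the tables, and a reference table of 80110 tea genes held 0 of the 98 identifiers. For the same reason the leaf label could not be checked against marker genes, and the genes are called by their identifiers.

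The summed FPKM was between 609588 and 653908 per library. Features with at least 1 FPKM numbered 24998 ± 252 for K6, 25458 ± 190 for K11, 25945 ± 121 for YH9 and 24900 ± 133 for QX1 (SD over 3 libraries each). The tables give no counts, so absolute depth is unknown. Relative depth, read from the steps of low values, was 1.30, 1.39 and 1.49 in YH9 replicates 1, 2 and 3 and between 0.877 and 1.16 in the other libraries, on a scale where K6 replicate 1 is 1. The value of YH9 replicate 1 could also be 2 times as high. All 98 genes had at least 1 FPKM in all 12 libraries, so none depended on the filter of low values.

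The 98 genes held the smallest share of the leaf transcriptome in YH9 and the largest in QX1. Their share of the summed FPKM was 16.9%, 16.6% and 18.2% in K6, 17.2%, 17.9% and 16.0% in K11, 11.7%, 11.9% and 11.9% in YH9, and 19.5%, 20.3% and 20.6% in QX1. The libraries of K6 and K11 overlapped, all YH9 libraries lay under all others, and all QX1 libraries lay above all others. The means were 17.2% ± 0.837 for K6, 17.0% ± 0.956 for K11, 11.9% ± 0.146 for YH9 and 20.1% ± 0.541 for QX1 (SD, n = 3 libraries each). In bulk RNA, fewer cells of a type and less RNA per cell cannot be told apart. The YH9 libraries were also those with the most features of at least 1 FPKM and the highest relative depth, and the part of both in the low share was not tested.

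**Figure D1:**
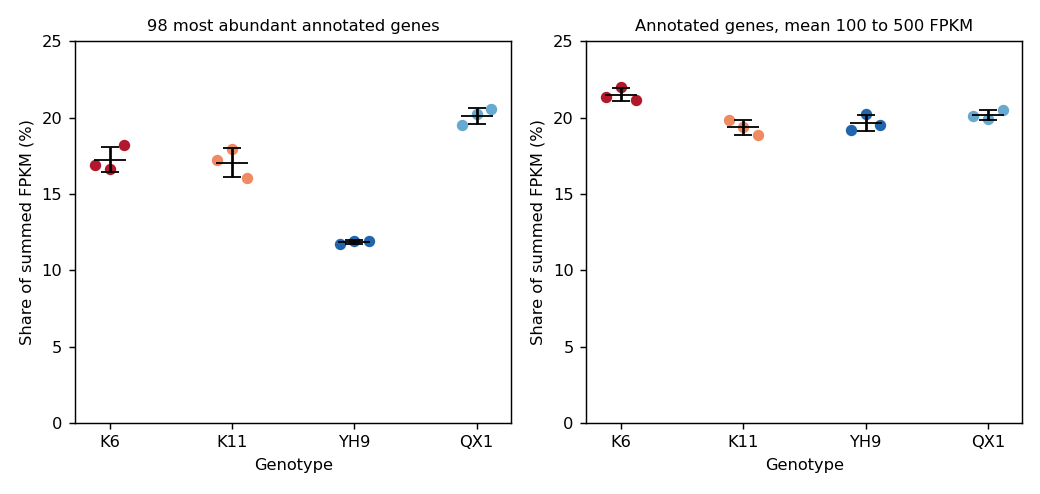
Share of the summed FPKM, in percent, held by the 98 most abundant annotated genes in each of the 12 libraries, and by the 655 annotated genes with means of 100 to under 500 FPKM, with a point per library, a line at the genotype mean and whiskers of 1 SD (n = 3). For the 98 genes the YH9 libraries sit between 11.7% and 11.9%, under every library of the other genotypes, and the QX1 libraries sit at 19.5% and higher.

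The low share of YH9 was mainly a matter of the genes below the first 10. The first 10 genes by mean took 4.32% ± 0.422 of the summed FPKM in K6, 4.48% ± 0.260 in K11 and 3.69% ± 0.0846 in YH9, with 5.60% ± 0.0824 in QX1. The other 88 took 12.9% for K6, 12.6% for K11, 8.17% for YH9 and 14.5% for QX1. A next class of 655 annotated genes, with means of 100 to under 500 FPKM, gave a different order. It held 21.5% ± 0.436 for K6, 19.4% ± 0.481 for K11, 19.6% ± 0.541 for YH9 and 20.2% ± 0.314 for QX1, so that YH9 did not stand apart there. The median of the 98 genes was 911 FPKM in K6, 811 FPKM in K11, 496 FPKM in YH9 and 940 FPKM in QX1.

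Choosing the 98 highest annotated genes of each genotype separately also put YH9 lowest and QX1 highest. That list took 17.7% ± 0.704 of the summed FPKM in K6, 17.96% ± 0.809 in K11 and 13.8% ± 0.1004 in YH9, with 20.8% ± 0.639 in QX1. The threshold of 500 FPKM itself was passed by 117 annotated genes in the K6 mean, 101 in the K11 mean, 70 in the YH9 mean and 108 in the QX1 mean. Among the 98 genes, 92 reached it in K6, 79 in K11 and 48 in YH9, with 86 in QX1. It was reached in all 4 genotype means by 29 genes, in 3 by 52, in 2 by 16 and in 1 by a single gene, and 26 genes reached it in every library.

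The gap between YH9 and QX1 was spread over many genes. The share in YH9 differed from that in QX1 by -8.25 percentage points, made up of 71 genes whose share was smaller in YH9, with -10.8 points in sum, and 27 genes whose share was larger, with 2.52 points in sum. TEA017601.1 gave -0.983 points and TEA009793.1 gave -0.748 points of it, while TEA029619.1 gave 0.692 points the other way. K6 exceeded YH9 by 5.39 points, the sum of 6.83 points from 80 genes and -1.44 points from 18 genes. The near equality of K6 and K11, 0.200 points apart, came from 50 genes with 3.39 points more in K6 and 48 genes with -3.19 points.

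TEA017601.1 ranked first of all annotated genes in every genotype. Its levels were 6056, 5407 and 7412 FPKM in K6, 6149, 8035 and 6666 FPKM in K11, 5614, 6144 and 5082 FPKM in YH9, and 11412, 12056 and 12906 FPKM in QX1. All QX1 libraries lay above all others, K6 overlapped both K11 and YH9, and K11 and YH9 did not overlap. It made up 0.998% of the summed FPKM in K6, 1.10% in K11 and 0.904% in YH9, with 1.89% in QX1. Its level was lower in YH9 than in QX1, with a log2 difference of -1.11 ± 0.13 (SE, limma adjusted p = 8.6e-06). With quantile normalization the difference was -0.11 and no call was made. That method gives features of equal rank among all features the same value in every library, and its part in this change was not tested. K6 differed from QX1 by -0.96 (limma adjusted p = 8.32e-05), which lies just under the 2-fold size asked of a call, and K11 from QX1 by -0.81 (limma adjusted p = 0.000185).

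Below the first place the order differed between genotypes. The second rank was held by TEA009793.1 in K6, by TEA032499.1 in K11, by TEA029619.1 in YH9 and by TEA009793.1 in QX1. TEA007357.1 ranked 3 for K6, 5 for K11, 3 for YH9 and 18 for QX1. The 10 highest genes of the 4 genotypes made a list of 21, all of them among the 98, and 2 genes were on all 4 lists. Of the 21 genes, 3 ranked beyond 200 in a genotype, and for all of them, TEA017256.1, TEA016722.1 and TEA006434.1, that genotype was YH9. Further down, 84 of the 98 genes were among the 98 highest annotated genes of K6, 78 among those of K11, 58 among those of YH9 and 81 among those of QX1. The lowest rank that any of them took was 229 for K6, 14503 for K11, 5415 for YH9 and 272 for QX1.

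**Figure D2:**
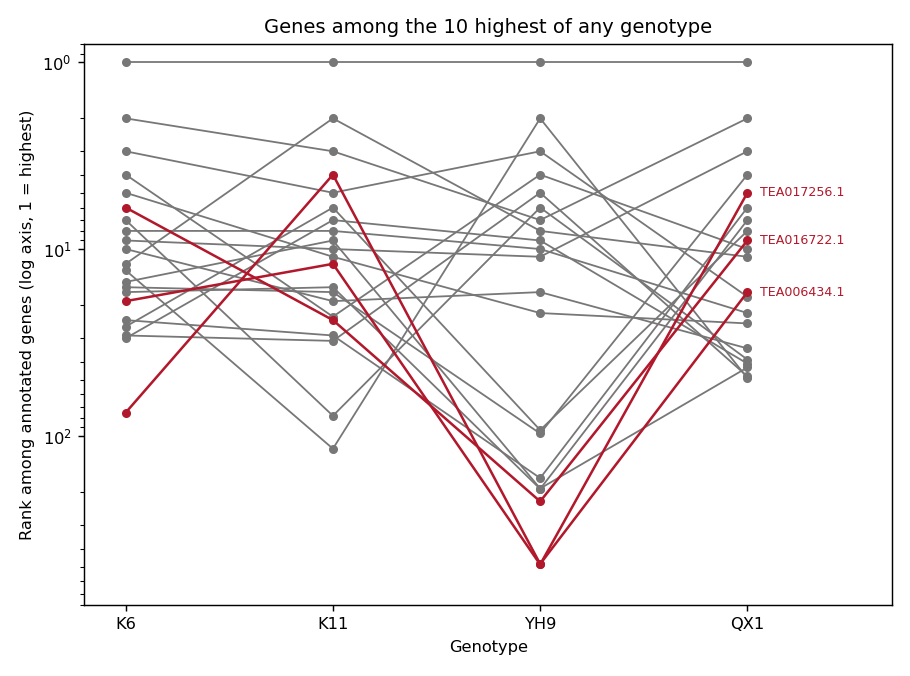
Rank by genotype mean among all annotated genes, on a log axis, of the 21 genes that were among the 10 highest in at least 1 genotype, with a line per gene across K6, K11, YH9 and QX1 and with 3 genes in red. TEA017601.1 holds rank 1 throughout, and the 3 genes in red, TEA017256.1, TEA016722.1 and TEA006434.1, drop beyond rank 200 in YH9.

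TEA029619.1 and TEA032499.1 are the genes that took the second rank in YH9 and in K11. TEA029619.1 had 1438, 1884 and 1553 FPKM in K6, 576, 236 and 559 FPKM in K11, 5536, 5217 and 4955 FPKM in YH9, and 807, 1126 and 995 FPKM in QX1. The genotypes did not overlap, with YH9 highest, then K6, then QX1, and K11 lowest. The means of YH9 and K11 were 11.5-fold apart, and YH9 exceeded QX1 by a log2 difference of 2.43 ± 0.27 (limma adjusted p = 6.95e-06). TEA032499.1 had 1662, 1368 and 1971 FPKM in K6, 4648, 4819 and 4178 FPKM in K11, 1405, 1389.6 and 1689 FPKM in YH9, and 2279.9, 1503 and 2599 FPKM in QX1. Here K11 stood above every other library and the remaining genotypes overlapped. K11 exceeded YH9 by 1.61 ± 0.18 on the log2 scale (limma adjusted p = 6.14e-06), and K6 lay under K11 by -1.46 ± 0.18 (limma adjusted p = 2.09e-05).

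A gene was called different between genotypes when its log2 difference was 1 or more in size and its limma p, adjusted over all 29364 features tested, was below 0.05. Of the 98 genes, 72 were called in at least 1 of the 6 pairs of genotypes, which is 73.5% of them. The background share was 46% of all features tested, and it was 55.0% in the class of 100 to under 500 FPKM. The remaining 26 genes were called in no pair, where the background share is 54%. All of these 26 still differed in some pair at an adjusted p below 0.05, but by less than 2-fold. The pairs share libraries, since each genotype enters 3 of them, and so their counts are not independent of each other. The spread between libraries of a genotype had a median SD of 0.1504 on the log2 scale over the 98 genes. It was 0.139 in the class of 100 to under 500 FPKM and 0.193 over all features tested.

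YH9 and QX1, the conventional varieties, differed in more of these genes than any other pair did. In YH9, 8 genes were higher and 48 lower than in QX1, so 56 of 98 were called, beside a background of 23.8% called, 14.6% higher and 9.24% lower. The median log2 difference was -0.95 over the 98 genes and 0.17 over all features. The split depended on the scaling. With TMM scaling, which lines up the bulk of the features, 5 genes were called higher and 56 lower, and with quantile normalization, which gives every library the same distribution of values, 16 were higher and 33 lower. The median of the 98 genes was -1.14 with TMM scaling and -0.50 with quantile normalization.

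The deepest reductions in YH9 were those of TEA004730.1, TEA017256.1 and TEA003992.1. TEA004730.1 had 1696, 1526 and 1877 FPKM in K6, 1741, 2335 and 1800.3 FPKM in K11, 14.3, 27.2 and 20.6 FPKM in YH9, and 1680.5, 1944 and 2038 FPKM in QX1. The YH9 libraries were far under all others, which overlapped, and the highest and the lowest genotype mean were 94.5-fold apart. YH9 differed from QX1 by -6.48 ± 0.19 on the log2 scale (limma adjusted p = 5.26e-11), while K6 differed from QX1 by -0.15 (limma adjusted p = 0.575). It ranked 11 for K6, 13 for K11, 5415 for YH9 and 15 for QX1.

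TEA017256.1 had 1362, 1195 and 1616 FPKM in K6, 1921, 2218 and 1819.6 FPKM in K11, 138, 154 and 133 FPKM in YH9, and 3178, 3329 and 3163 FPKM in QX1. No genotype overlapped another, and QX1 was the highest. YH9 lay -4.50 ± 0.11 from QX1 on the log2 scale (limma adjusted p = 1.77e-11). TEA003992.1 had 856, 977 and 806 FPKM in K6, 782, 572 and 548 FPKM in K11, 96.1, 87.3 and 149 FPKM in YH9, and 1202, 1380.4 and 1404 FPKM in QX1. Again the YH9 libraries were the lowest and the QX1 libraries the highest without overlap, and the difference of YH9 from QX1 was -3.61 ± 0.18 (limma adjusted p = 4.13e-09).

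**Figure D3:**
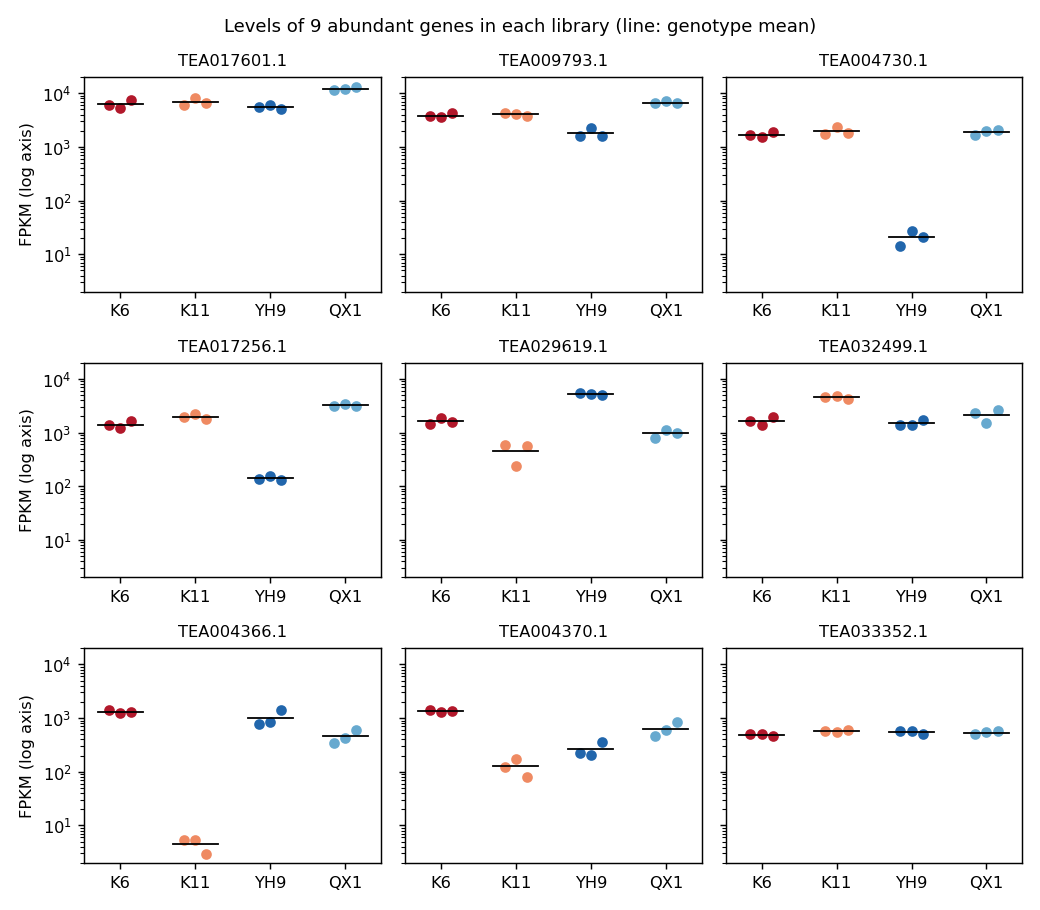
FPKM of 9 genes in each of the 12 libraries, on a log axis, with a point per library, a line at the genotype mean and the genotypes in the order K6, K11, YH9 and QX1. TEA004730.1 is under 30 FPKM in every YH9 library and at 1526 FPKM or more in all others, and TEA004366.1 is under 6 FPKM in every K11 library.

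The genes higher in YH9 than in QX1 were few. Besides TEA029619.1, the most raised were TEA027582.1 and TEA013193.1. TEA027582.1 had 531, 502 and 595 FPKM in K6, 664, 711 and 631 FPKM in K11, 1381, 1259.9 and 1260.0 FPKM in YH9, and 457, 408 and 422 FPKM in QX1. The YH9 libraries were about level with each other and above all others, and YH9 exceeded QX1 by 1.60 ± 0.09 on the log2 scale (limma adjusted p = 8.2e-09). TEA013193.1 had 758, 959.8 and 769.7 FPKM in K6, 766, 682 and 871 FPKM in K11, 1305, 950.0 and 1006 FPKM in YH9, and 397, 400.3 and 299 FPKM in QX1. In this gene it was QX1 that stood apart, under all other libraries. It was the only one of the 98 genes called lower in QX1 than in each other genotype, where 1.19% of all features were. That call against K11 was lost with TMM scaling and without K11 replicate 3 or QX1 replicate 3. The genes called higher in YH9 than in each other genotype were TEA029619.1 and TEA002529.1, or 2 of 98, beside 6.11% of all features. For TEA002529.1 the calls against K11 and QX1 were lost without YH9 replicate 2, and that against QX1 also with TMM scaling. Without the YH9 libraries the mean of TEA002529.1 would be under 500 FPKM. Its YH9 level thus helped to choose it, and its rise in YH9 is a description. Called lower in K6 than in each other genotype were 0 genes, beside 0.957% of all features.

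The Kucha genotypes differed from YH9 mostly by higher levels of the 98 genes. In K6, 36 genes were higher and 4 lower than in YH9, or 40 of 98 called, beside a background of 21.9% called, 8.52% higher and 13.4% lower. In K11, 31 were higher and 9 lower than in YH9, also 40 of 98, beside a background of 23.9% called, 10.3% higher and 13.5% lower. The median log2 difference was 0.66 for K6 against YH9, against -0.15 over all features, and 0.63 for K11 against YH9, against -0.07 over all features. Quantile normalization gave 28 higher and 5 lower for K6 and 26 higher and 16 lower for K11. The comparisons of K6 and of K11 with YH9 use the same YH9 libraries.

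The largest rises over YH9 were those of TEA004730.1 and TEA017256.1, whose levels are given above, with TEA013315.1 in K6 and TEA006434.1 in K11. For TEA004730.1 the log2 difference was 6.33 ± 0.19 in K6 (limma adjusted p = 6.55e-11) and 6.53 ± 0.19 in K11 (limma adjusted p = 3.47e-11). TEA013315.1 had 1045, 1221 and 1191 FPKM in K6, 1151, 879 and 1216 FPKM in K11, 141, 125 and 103 FPKM in YH9, and 567, 646 and 519 FPKM in QX1. The K6 and K11 libraries overlapped and were above QX1, which was above YH9. K6 exceeded YH9 by 3.22 ± 0.14 (limma adjusted p = 1.31e-09), and K6 exceeded QX1 by 1.00, just short of the size of a call. TEA006434.1 had 719.5, 623 and 791 FPKM in K6, 2817, 3089 and 2613 FPKM in K11, 155, 138 and 134 FPKM in YH9, and 1739.7, 1277 and 2302 FPKM in QX1. None of its genotypes overlapped, and K11 exceeded YH9 by 4.31 ± 0.17 (limma adjusted p = 4.11e-10).

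The 4 genes lower in K6 than in YH9 were TEA014287.1, TEA002529.1, TEA029619.1 and TEA027582.1, and TEA002529.1 and TEA029619.1 were also among the 9 lower in K11. TEA014287.1 and TEA002529.1 reached the threshold of 500 FPKM only with their YH9 libraries, so their differences from YH9 are a description. TEA002529.1 had 423, 340.5 and 322 FPKM in K6, 566, 588 and 481 FPKM in K11, 1069, 1578 and 1024 FPKM in YH9, and 532, 583 and 552 FPKM in QX1. Every YH9 library was above all others and every K6 library below all others, and K6 lay -1.74 ± 0.15 and K11 -1.14 ± 0.15 from YH9 (limma adjusted p = 7.44e-07 and 2.91e-05). TEA014287.1 varied more, with 379, 215 and 292 FPKM in K6, 684, 344 and 855 FPKM in K11, 963, 1403 and 835 FPKM in YH9, and 587, 541 and 596 FPKM in QX1. K6 and YH9 did not overlap in it, but K11 overlapped both of them, and K6 lay -1.85 ± 0.30 from YH9 (limma adjusted p = 0.000241). TEA029619.1 differed from YH9 by -1.70 ± 0.27 in K6 and by -3.62 ± 0.27 in K11 (limma adjusted p = 0.000169 and 1.83e-07). The 3 genes lowest in K11 relative to YH9 were TEA004366.1, with a log2 difference of -7.49 ± 0.25 (limma adjusted p = 2.27e-10), TEA029619.1, and TEA023644.1, with one of -1.77 ± 0.22 (limma adjusted p = 2.07e-05).

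Taking the 3 comparisons with YH9 side by side, 25 of the 98 genes were called lower in YH9 than in all of K6, K11 and QX1, against 2.49% of all features and 8.24% of the class of 100 to under 500 FPKM. The comparisons share the YH9 libraries, so this count describes the YH9 level and is not 3 separate observations. These 25 genes were grouped by those calls, and their shares are a description. They held 4.93% ± 0.386 of the summed FPKM in K6, 5.66% ± 0.493 in K11 and 1.25% ± 0.0761 in YH9, with 7.37% ± 0.308 in QX1. The other 73 genes held 12.3% ± 0.452 for K6, 11.4% ± 0.475 for K11, 10.6% ± 0.0979 for YH9 and 12.7% ± 0.287 for QX1. The median of the 25 genes was 1152 FPKM in K6, 1170 FPKM in K11, 251 FPKM in YH9 and 1633 FPKM in QX1. Over all 98 genes, the lowest genotype was YH9 for 62, which is 63.3%, and in the class of 100 to under 500 FPKM it was YH9 for 33.4%.

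**Figure D4:**
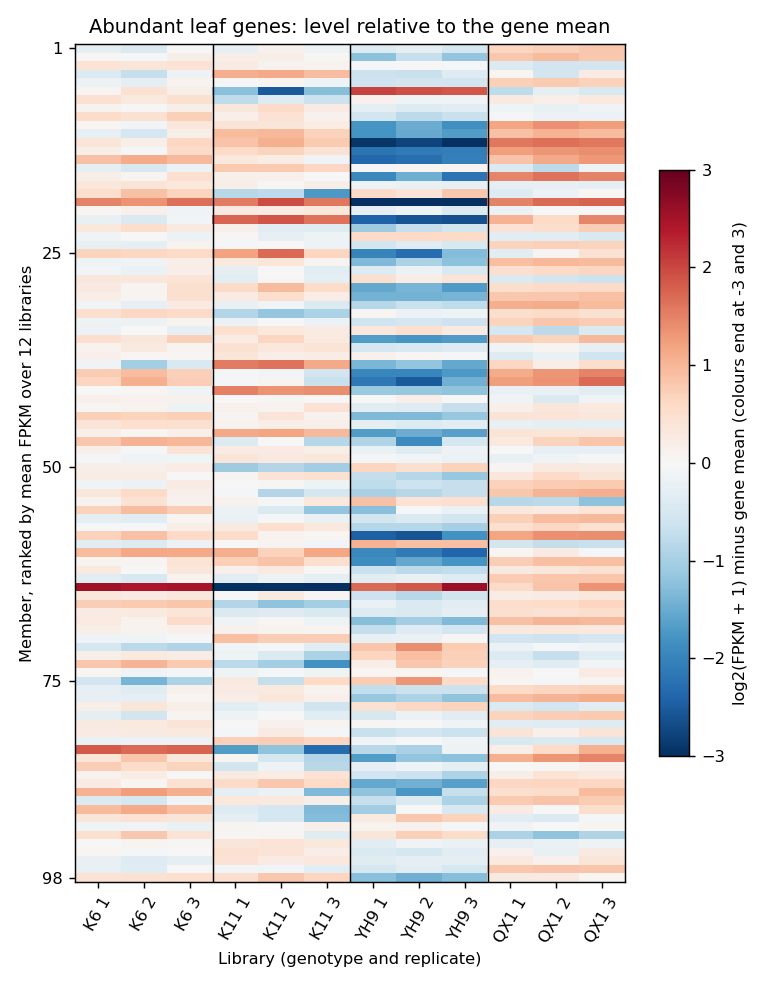
Level of each of the 98 genes in the 12 libraries as the log2 difference from the mean of that gene over all libraries, on log2(FPKM + 1), with a row of colour per gene from the highest mean at the top and the libraries in the order K6, K11, YH9 and QX1. Colours end at -3 and 3. Many genes are low in the YH9 libraries, among them the 25 called lower there than in each other genotype.

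QX1 differed from the Kucha genotypes in fewer genes. In K6, 5 genes were higher and 12 lower than in QX1, so 17 of 98 were called, beside a background of 11.8% called, 5.83% higher and 6.02% lower. Without K6 replicate 2 the count was 11. In K11, 7 were higher and 19 lower than in QX1, so 26 of 98 were called, beside a background of 19.2% called, 10.6% higher and 8.62% lower. The median log2 difference was -0.13 for K6 and -0.20 for K11, against 0.01 and 0.08 over all features. Quantile normalization gave 9 higher and 7 lower for K6 and 7 higher and 11 lower for K11, so the balance for K6 turned round with that scaling. The comparisons of K6 and of K11 with QX1 use the same QX1 libraries.

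Among the genes lower in K6 than in QX1, TEA006434.1 differed by -1.28 ± 0.17 (limma adjusted p = 6.44e-05), TEA001864.1 by -1.27 ± 0.16 (limma adjusted p = 4.88e-05) and TEA017256.1 by -1.22 ± 0.11 (limma adjusted p = 2.95e-06). TEA001864.1 had 1237, 1165 and 1565 FPKM in K6, 1213, 1215 and 1083 FPKM in K11, 285, 400.0 and 236 FPKM in YH9, and 3028, 3405 and 3082 FPKM in QX1. Its QX1 libraries were above all others, its YH9 libraries below all others, and K6 and K11 overlapped. It is 1 of 4 genes called higher in QX1 than in each other genotype, with TEA023681.1, TEA007632.1 and TEA013986.1, where 2.21% of all features were. Higher in K6 than in QX1 was TEA012154.1, with 681, 847 and 649.8 FPKM in K6, 494, 511 and 378 FPKM in K11, 624, 792 and 717 FPKM in YH9, and 249.6, 209 and 259 FPKM in QX1. QX1 was the lowest without overlap, and the log2 difference of K6 from QX1 was 1.59 ± 0.14 (limma adjusted p = 2.11e-06). Without its K6 libraries the mean of TEA012154.1 would be under 500 FPKM, so this difference is a description.

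K11 exceeded QX1 most in TEA017140.1, TEA017457.1 and TEA015653.1. TEA017140.1 had 678, 707 and 641 FPKM in K6, 1940.1, 1749.6 and 1788 FPKM in K11, 317, 308 and 298 FPKM in YH9, and 592, 591 and 551 FPKM in QX1. The genotypes did not overlap and the libraries of each lay close together, and K11 exceeded QX1 by 1.66 ± 0.08 (limma adjusted p = 2.33e-09). With TEA032499.1 it is 1 of 2 genes called higher in K11 than in each other genotype, against 3.63% of all features, and the call of TEA032499.1 against QX1 was lost without QX1 replicate 2. TEA017457.1 had 586, 583 and 624 FPKM in K6, 1189.9, 1055 and 1068 FPKM in K11, 541, 557 and 648 FPKM in YH9, and 423, 414 and 447 FPKM in QX1. K11 was again above all others, and it exceeded QX1 by 1.36 ± 0.09 (limma adjusted p = 4.6e-08). The difference of TEA015653.1 was 1.18 ± 0.14 (limma adjusted p = 1.19e-05).

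K6 and K11, although both Kucha, differed about as often as all features did. In K6, 16 genes were higher and 7 lower than in K11, so 23 of 98 were called, beside a background of 19.2% called, 8.71% higher and 10.5% lower. The median log2 difference was 0.02 over the 98 genes and -0.07 over all features. TMM scaling gave 18 higher and 4 lower, and quantile normalization gave 15 higher and 7 lower.

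TEA004366.1 showed the widest difference of all 98 genes. It had 1385, 1268 and 1324 FPKM in K6, 5.44, 5.44 and 2.88 FPKM in K11, 771, 857 and 1411 FPKM in YH9, and 350.5, 426 and 601 FPKM in QX1. The K11 libraries were far under all others, K6 and YH9 overlapped, and QX1 lay between K11 and both of these. The genotype means of K6 and K11 were 289-fold apart, and the log2 difference of K6 from K11 was 7.93 ± 0.25 (limma adjusted p = 3.18e-10). Without its K6 libraries the mean of TEA004366.1 would be under 500 FPKM, so its differences of K6 from other genotypes are a description. TEA004370.1 had 1437, 1315 and 1383 FPKM in K6, 125, 174 and 81.0 FPKM in K11, 228, 205 and 362 FPKM in YH9, and 462, 608 and 845 FPKM in QX1. No genotype overlapped another in it, and K6 exceeded K11 by 3.50 ± 0.28 (limma adjusted p = 6.34e-07). It was the only one of the 98 genes called higher in K6 than in each other genotype, against 1.69% of all features. Its call against QX1 was lost without QX1 replicate 1. Only with its K6 libraries did it reach the threshold of 500 FPKM, so its place above the others in K6 is a description.

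Both genes belonged to the 4 called lower in K11 than in each other genotype, with TEA029619.1 and TEA025251.1, where 2.33% of all features were. The K11 calls of TEA004370.1 against YH9 were lost without K11 replicate 3 or YH9 replicate 3, and that of TEA029619.1 against QX1 without K11 replicate 2 and with quantile normalization. Set against the mean of YH9 and QX1, TEA004366.1 and TEA004370.1 were called higher in K6 and lower in K11. Such opposite calls were made for 2 of 98 genes, or 2.04%. They were made for 1.21% of all features and for 2.90% of the next class of 655 annotated genes. The K6 call of TEA004366.1 rested on QX1, since K6 lay 0.44 from YH9 (limma adjusted p = 0.159), and it was lost in 6 of 18 alternatives. TEA023644.1 was also higher in K6 than in K11, by 2.07 ± 0.22 (limma adjusted p = 7.37e-06). In the other direction, TEA006434.1 lay -1.999 ± 0.17 from K11 in K6 (limma adjusted p = 6.31e-07). TEA022806.1 had 650.0, 345 and 507 FPKM in K6, 2049.9, 2147 and 1529 FPKM in K11, 269, 306 and 241 FPKM in YH9, and 1076, 791 and 996 FPKM in QX1. Its genotypes did not overlap, with K11 highest and YH9 lowest, and K6 lay -1.96 ± 0.21 from K11 (limma adjusted p = 4.83e-06).

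**Figure D5:**
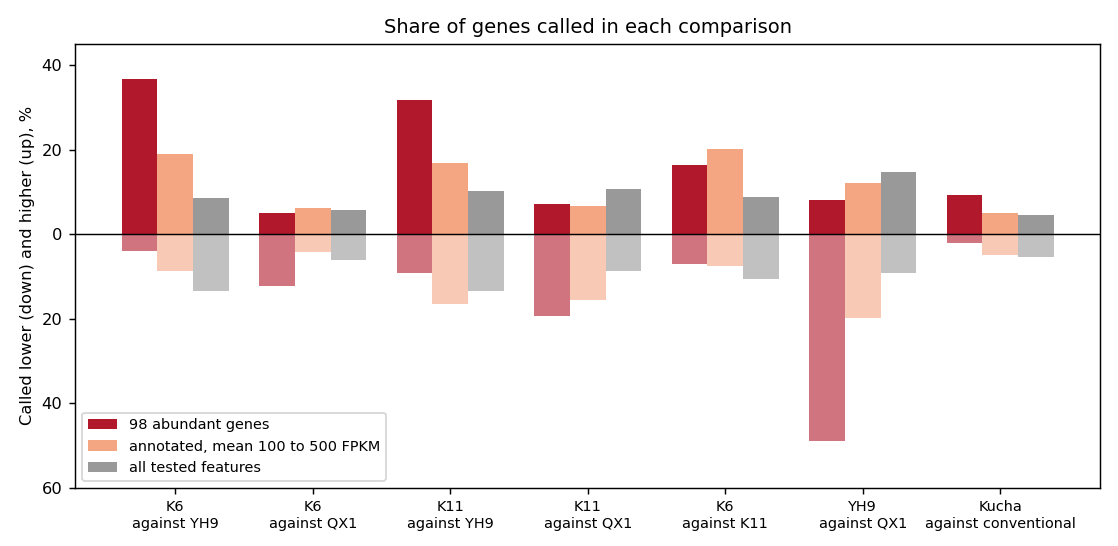
Percent of the 98 abundant genes, of the annotated genes with means of 100 to under 500 FPKM and of all tested features that were called higher (bars up) and lower (bars down) in the first-named genotype of each comparison. The bar of the 98 genes is longest downwards for YH9 against QX1, where 48 genes were lower, and shortest in both directions together for Kucha against conventional, with 9 higher and 2 lower.

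Set against each other as kinds, the mean of K6 and K11 and the mean of YH9 and QX1 differed in 11 of the 98 genes, 9 higher and 2 lower in Kucha, beside a background of 9.91% called, 4.51% higher and 5.39% lower. Quantile normalization gave 10 higher and 4 lower. The median log2 difference was 0.28 over the 98 genes and -0.04 over all features. Each kind is only 2 genotypes. The SE and p-values between the kinds measure the spread among libraries within genotypes, not the spread among genotypes of a kind, so they hold for these 4 genotypes only. All 9 genes higher in the Kucha mean had their lowest level in YH9, and all 9 were called higher in K6 than in YH9 and in K11 than in YH9. Among the 9, TEA023243.1 would have a mean under 500 FPKM without its K6 libraries or without its K11 libraries, so its rise in Kucha is a description. Against QX1, 0 of the 9 were called higher in K6, and 2 were called higher in K11, TEA004371.1 and TEA017140.1. For TEA004371.1 that call was lost without K11 replicate 2 or QX1 replicate 1. Both genes lower in the Kucha mean, TEA004366.1 with -2.96 ± 0.18 and TEA029619.1 with -1.44 ± 0.19 (limma adjusted p = 5.29e-08 and 4.53e-05), had their lowest level in K11. In TEA004366.1 the K6 libraries overlapped those of YH9 and were above those of QX1.

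The 5 largest rises of the Kucha mean were those of TEA004730.1 with a log2 difference of 3.19, TEA013315.1 with 2.06, TEA004371.1 with 1.81, TEA006434.1 with 1.51 and TEA017140.1 with 1.39. TEA004371.1 had 1558, 1508 and 1475 FPKM in K6, 2256, 3200.0 and 1546 FPKM in K11, 243, 200.1 and 397 FPKM in YH9, and 773, 1036 and 1351 FPKM in QX1. Both Kucha genotypes were above both conventional varieties in every library, K6 and K11 overlapped, and YH9 was under QX1. The largest adjusted p among these 5 genes was 1.13e-05, by limma.

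None of the 98 genes was called higher, and none lower, by limma in all 4 pairings of K6 or K11 with YH9 or QX1, where the background was 0.545% higher and 0.657% lower. Without the demand on size, 10 genes were higher in all 4 pairs at an adjusted p below 0.05, beside 2.77% of all features, and 0 were lower, beside 2.41% of all features. At an unadjusted p below 0.05 the counts were 11 higher, beside 3.50% of all features, and 0 lower, beside 3.22%. The 4 pairs reuse the libraries of each genotype. The count of 10 rested on small differences and moved with the settings. It was 4 with TMM scaling and 3 with quantile normalization, which also gave 1 gene lower in all 4 pairs. It was 5 without K6 replicate 1, 6 without YH9 replicate 1, 6 without QX1 replicate 1, 6 without QX1 replicate 2 and 5 without QX1 replicate 3. The 10 genes were TEA007357.1, TEA034042.1, TEA006643.1, TEA015791.1, TEA017140.1, TEA015580.1, TEA022960.1, TEA013315.1, TEA011740.1 and TEA023243.1, and their log2 differences of the Kucha mean from the conventional mean ran from 0.40 in TEA022960.1 to 2.06 in TEA013315.1. Without their K11 libraries the means of TEA011740.1 and TEA023243.1 would be under 500 FPKM, and that of TEA023243.1 also without its K6 libraries. The higher Kucha levels of TEA011740.1 and TEA023243.1 are thus a description.

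TEA007357.1, TEA034042.1 and TEA006643.1 were the most abundant of these 10. TEA007357.1 had 3336, 3211 and 3413 FPKM in K6, 2957, 2719 and 2715 FPKM in K11, 2394, 2501 and 2424 FPKM in YH9, and 1875, 1695 and 1706 FPKM in QX1. The 4 genotypes did not overlap and followed the order K6, K11, YH9 and QX1, with a log2 difference of 0.56 ± 0.05 between the kinds (limma adjusted p = 2.43e-06). Within the conventional kind, YH9 exceeded QX1 by 0.47. Between K11 and YH9 the difference was 0.20, and -0.11 with quantile normalization. TEA006643.1 had 2455, 2291 and 2738 FPKM in K6, 1857, 2263 and 1848 FPKM in K11, 1150.0, 977 and 1052 FPKM in YH9, and 1612, 1496 and 1483 FPKM in QX1. All Kucha libraries were above all conventional ones, and the difference between the kinds was 0.80 ± 0.07 (limma adjusted p = 1.36e-06).

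Of the remaining first 10 genes, 4 had their lowest mean in YH9 and 1 in K11. TEA009793.1 had 3798, 3555 and 4209 FPKM in K6, 4214, 4176 and 3828 FPKM in K11, 1579, 2301 and 1629 FPKM in YH9, and 6456, 7141 and 6485 FPKM in QX1. K6 and K11 overlapped, YH9 was lowest and QX1 highest, and YH9 lay -1.89 ± 0.13 from QX1 (limma adjusted p = 5.98e-08). TEA028092.1 followed the same order, with 401, 489.7 and 386 FPKM in YH9 against 3121, 3534 and 3301 FPKM in QX1, and so did TEA001747.1, with 1365, 1425 and 1399 FPKM in YH9 against 3421, 3583 and 3369 FPKM in QX1. TEA023340.1 was lowest in K11, with 2671, 2382 and 2712 FPKM in K6 against 1153, 1502 and 1258 FPKM in K11, a log2 difference of 0.99 ± 0.11 (limma adjusted p = 7.03e-06). TEA034042.1 was highest in K11, with genotype means of 1961 ± 109 FPKM in K6, 2389 ± 289 FPKM in K11, 1439 ± 36.9 FPKM in YH9 and 1643 ± 62.0 FPKM in QX1.

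The genes with the smallest span of genotype means ranked from 42 (TEA004742.1) to 92 (TEA033352.1) of the 98 by mean level. TEA033352.1 had 497, 495 and 467 FPKM in K6, 566, 549 and 589.8 FPKM in K11, 571, 580.1 and 514 FPKM in YH9, and 497, 541 and 564 FPKM in QX1. Its QX1 libraries overlapped those of each other genotype, and the genotype means spanned 1.17-fold. TEA018030.1 spanned 1.17-fold as well, with 675, 604 and 637 FPKM in K6, 581, 629 and 592 FPKM in K11, 682, 682 and 629.6 FPKM in YH9, and 697, 648 and 766 FPKM in QX1. TEA004742.1, TEA028050.1 and TEA022960.1 followed with spans of 1.26-fold, 1.37-fold and 1.38-fold. These 5 genes were chosen for their small span, so it is a description.

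At the threshold of 500 FPKM the last genes taken were TEA004752.1 with a mean of 505.0 FPKM, TEA022946.1 with 504.7 FPKM and TEA023243.1 with 503.6 FPKM. The first annotated genes left out were TEA008169.1 with 498.2 FPKM, TEA000218.1 with 495.03 FPKM and TEA002422.1 with 493.2 FPKM. The genes on either side of the threshold differed little in level.

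A mean over all libraries includes the libraries that are compared, so the counts were also made with genes chosen by the mean of the 2 genotypes that a pair does not contain. Of 107 genes so chosen for K6 against YH9, 42 were called higher and 5 lower in K6. For K11 against YH9 it was 39 higher and 10 lower in K11 of 115 genes, and for YH9 against QX1 8 higher and 50 lower in YH9 of 103 genes. For K6 against QX1 it was 5 higher and 10 lower in K6 of 94 genes, for K11 against QX1 8 higher and 20 lower in K11 of 95 genes, and for K6 against K11 16 higher and 7 lower in K6 of 96 genes. The direction of the majority was the same as with the genes chosen over all 12 libraries in all 6 pairs. The counts between the kinds and over all 4 Kucha-conventional pairs were not made in this way.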

How the data were processed

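The authors deposited 1 table per library with FPKM values, per the file headers, each listing the same 42704 features with 2 decimals. Bowtie2 2.2.8 and TopHat2 2.1.1 are the tools listed in the submitters' processing notes, while the FPKM program, the genome build and the annotation version were not given in the sources used. Genotypes were compared on a log2 scale after adding 1 to each FPKM, which understates the change of low genes. One limma model (limma 3.58.1, R 4.3.3) covered all 12 libraries and the 29364 features that reached 1 FPKM in 3 or more libraries. P-values were adjusted by Benjamini-Hochberg within each contrast, over all these features and not across contrasts. No library was a copy, since equal values made up at most 1.32% of features between replicates.

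Named genes were the 10 highest by mean, the 3 largest differences in each direction per pair of genotypes, up to 5 in each direction between the kinds, the 5 with the smallest span of genotype means, 3 on either side of the threshold, those with a genotype mean under 50 FPKM and the first-ranked. Genes in other counts and those with close identifiers were named after their values were seen. The 98 genes and the rules were chosen with earlier results of these data known. The test was checked on simulated data. Alternatives were other pseudocounts, filters, scalings and thresholds, a replicate block and leaving out each library.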

Additional observations from a re-analysis of the deposited data

Results flagged for a closer look

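K6 and K11 moved in opposite directions from the conventional varieties in 2 of the 98 genes, beside 1.21% of all features. TEA004366.1 lay above the mean of YH9 and QX1 in K6, by 1.00 on the log2 scale (limma adjusted p = 0.00242), and below it in K11, by -6.93 (limma adjusted p = 1.69e-10). K6 differed from QX1 in it by 1.56 (limma adjusted p = 0.000389), and its 0.44 from YH9 missed the threshold (limma adjusted p = 0.159). The K6 value lies at the edge of the size of a call and was 0.86 to 1.13 over 18 alternatives, called in 12 of them. The difference between these effects, which equals that of K6 from K11, was 7.93 ± 0.25 (limma adjusted p = 3.18e-10). TEA004370.1 was 1.78 above that mean in K6 (limma adjusted p = 8.1e-05) and -1.71 from it in K11 (limma adjusted p = 7.09e-05), and the difference between the effects was 3.50 ± 0.28 (limma adjusted p = 6.34e-07). Both effects are set against the same conventional libraries. Without its K6 libraries the mean of either gene would be under 500 FPKM. The K6 values thus helped to choose both genes, and their differences of K6 from the conventional mean and from K11 are a description. Each gene showed these directions in all 3 K6 and all 3 K11 libraries when set against the conventional mean.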

How the results depend on the processing

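Of 99 called differences of the 38 named genes, 79 kept their call under every alternative run and 20 lost it under at least 1, always with the same direction. Of 108 differences of these genes with an adjusted p below 0.05 but under the size of a call, 27 were called under some alternative. Quantile normalization turned 7 of them round, to -0.11 for TEA007357.1 and -0.0388 for TEA028050.1 (both K11 against YH9), 0.00328 for TEA032499.1 and 0.0490 for TEA006643.1 (both YH9 against QX1), -0.12 (K6 against YH9) and -0.00756 (K11 against YH9) for TEA022960.1 and -0.0344 for TEA022946.1 (K6 against YH9), and the cause was not tested.

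For the counts of called genes, the pseudocount of 0.1, no filter, the filter of 5 FPKM and the fit on the pair alone left all 6 pairs as they were. With the replicate number as a block the counts were 40 and 17 for K6 against YH9 and QX1, 40 and 26 for K11 against YH9 and QX1, 23 for K6 against K11, 56 for YH9 against QX1 and 11 for the kinds, as without it, and 7 genes in place of 10 were higher in all 4 Kucha-conventional pairs. The numbers did not pair the libraries, as the 18 correlations of same-numbered libraries ran from -0.104 to 0.0560 and 2 of 12 libraries correlated best with their own number. In that order of comparisons, genes chosen at 300 FPKM (192) gave 75, 28, 74, 46, 46, 102 and 23, and genes chosen at 1000 FPKM (33) gave 16, 7, 16, 7, 7, 20 and 6, as the lists differ in length. Leaving out each library gave 38 to 43, 11 to 20 (11 without K6 replicate 2), 39 to 42, 21 to 30, 19 to 25, 55 to 58 and 11 to 14, and 70 to 74 for genes called in any pair. It gave 24 to 27 for genes lower in YH9 than in each other genotype, and 5 to 9 higher and 0 lower for genes different in all 4 Kucha-conventional pairs, where TMM scaling gave 4 higher and quantile normalization 3 higher and 1 lower. The count of 2 genes with opposite calls in K6 and K11 was 1 with quantile normalization and 1 to 2 without each library, 1 without K6 replicate 1, YH9 replicate 1 or 2 or QX1 replicate 1 or 2, as TEA004366.1 fell under the size of a call. Recomputing these last 5 counts was chosen after seeing the data.

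For K6, K11, YH9 and QX1, the share was 20.6%, 20.4%, 14.3% and 23.9% of annotated genes alone, 23.3%, 22.8%, 17.0% and 26.1% for genes at 300 FPKM and 9.22%, 9.79%, 6.36% and 12.01% at 1000 FPKM. Without each library it ran from 16.8% to 17.5%, 16.6% to 17.6%, 11.8% to 11.9% and 19.9% to 20.4%. Quantile normalization, which evens out the distributions, moved it to 14.4% in YH9 and 17.6% in QX1. The number of genes chosen was 97 to 101 without each library. Without counts, no interval for counting error can be given.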

Other observations

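Several of the 98 genes carry identifiers with close numbers, which was noticed after their values were seen. The tables give no positions for annotated genes, so whether such genes are neighbours was not tested. TEA001864.1 and TEA001868.1 both had YH9 lowest and QX1 highest. TEA001868.1 had 1365, 1182 and 1817 FPKM in K6, 1834, 1931 and 1652 FPKM in K11, 267, 279 and 287 FPKM in YH9, and 2908, 3039 and 3196 FPKM in QX1. These levels overlapped those of TEA001864.1 in K6, YH9 and QX1 and lay above them in K11. The 4 genes TEA004360.1, TEA004366.1, TEA004370.1 and TEA004371.1 did not share a pattern. TEA004360.1 had 602, 834 and 598 FPKM in K6, 497, 326 and 255 FPKM in K11, 145, 204 and 199 FPKM in YH9, and 988, 1168 and 1327 FPKM in QX1, so that YH9 was lowest. TEA004371.1 was highest in K11, where TEA004366.1 and TEA004370.1 were lowest. Fragments shared by near-identical copies cannot be assigned with certainty, and the tables do not show whether these 4 genes are such copies, so their values are uncertain to that extent. TEA004730.1, at 20.7 FPKM in YH9 on average, has numbers close to TEA004742.1 and TEA004752.1, which had 874 and 402 FPKM there.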
